A study of Mus musculus with 6 samples.

Results

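The genes described are those of the proteasome, the protease that cuts most intracellular proteins into peptides, in resting splenic CD8+ T cells (CD8-TC) with and without the transcription factor Runx3. The members were the genes whose array symbol starts with Psm, followed by a letter from a to g and a digit. The rule took 50 genes with 56 probe sets, of 19938 genes with a probe set of their own and 35399 probe sets in all. Of these, 48 encode proteasome subunits, activators, an inhibitor or assembly chaperones. The other 2, Psmc3ip and Psme3ip1, carry the name of a proteasome subunit that their products bind and are not proteasome genes.

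The arrays came from 6-week-old male ICR mice, an outbred stock, with 1 array per biological repeat. They compared 3 repeats from WT (Runx3 +/+) mice with 3 from Runx3-/- mice, in which Runx3 is deleted in every cell and not in T cells alone. The paper does not say whether a repeat was a single mouse. WT cells were about 95% pure by the paper's account after bead selection with an antibody to CD8. Runx3-/- cells went through the same selection followed by a FACS sort against CD8+ dendritic cells that carry CD11c. The additional sort cannot be told apart from the genotype, and p-values measure the spread among these 6 samples.

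The 20S core of the proteasome is a barrel of stacked rings, with outer rings of alpha subunits (Psma genes) and inner rings of beta subunits (Psmb genes), of which Psmb5, Psmb6 and Psmb7 carry the constitutive active sites. The 19S particle (Psmc and Psmd genes) caps the core, binds ubiquitinated proteins, unfolds them and feeds them in. In lymphocytes and in cells exposed to interferon, newly assembled cores take up the immunosubunits Psmb8, Psmb9 and Psmb10 in place of Psmb5, Psmb6 and Psmb7, and the PA28 cap made of Psme1 and Psme2 opens the core, which favours peptides that MHC class I molecules can present.

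Across all genes the data separated the genotypes. Over the tested genes, correlations were at least 0.985 within a genotype and at most 0.971 between genotypes, and Cd4, a gene that Runx3 silences in CD8-TC, rose by 2.57 on the log2 scale (limma adjusted p = 2.36e-05). The Runx3 probe set itself did not fall (difference 0.16, adjusted p = 0.559), and the sources used here do not say whether it reads the deleted stretch. T cell markers were bright in every array, with Cd8a at 11.05 to 11.14 in WT and 10.91 to 11.17 in Runx3-/-. Markers of other cells were lower in the Runx3-/- arrays: 12 of 13 tested B cell markers, 15 of 16 macrophage markers, 5 of 6 erythroid markers and 4 of 14 dendritic cell markers passed the test, whereas 0 of 12 T cell markers fell and 3 rose. In summed linear signal the B cell markers ranged from 1240 to 1914 in WT and from 275 to 337 in Runx3-/-, the macrophage markers from 2871 to 2972 and from 336 to 590, and the erythroid markers from 447 to 664 and from 222 to 244. In bulk cells, fewer cells of a type and less RNA per cell cannot be told apart.

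The differences of the proteasome genes between the genotypes were small. To be tested, a gene needed a probe set at or above the median signal of an array, between 3.45 and 3.53 on the log2 scale, in 1 or more arrays. Of the 48 proteasome genes 46 passed, and of all genes 9925. At an adjusted p under 0.05 (limma, Benjamini-Hochberg over all 9925 genes), 0 of the 46 passed the test in either direction, beside 11.6% of all genes tested. At an unadjusted p under 0.05 they numbered 6, which were Psma1, Psma5, Psmb2, Psmb6 and Psme3 on the lower side and Psmg1 on the higher side, beside 27.7% of all genes. The lowest adjusted p among the members was 0.0744, for Psma1.

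The differences, given throughout as Runx3-/- minus WT on the log2 scale, ran from -0.38 for Psme3 to 0.31 for Psmg1. No proteasome gene reached a change of 1.5-fold (0.58 on the log2 scale), the size of change that the study's methods ask for, as 8.31% of all genes did. For 45 of the 46 genes the whole 95% interval of the difference lay within 1.5-fold in either direction, beside 73.9% of all genes. The background was not matched for brightness: the median level was 7.44 for the proteasome genes and 5.82 for all genes tested. The exception to the 1.5-fold bounds was Psme3, whose interval ran from -0.65 to -0.11. The median half-width of these intervals, which are not adjusted for the number of genes, was 0.24 for the proteasome genes and 0.26 for all genes. It is not a limit of detection, since the larger differences of Psme3 and Psmg1 did not pass the adjusted test either.

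The signs of the small differences were uneven. A difference below 0 was found for 32 of the 46 genes (69.6%), beside 48.9% of all genes, and the median over the members was -0.07 against 0.01 over all genes. These shares describe genes that are measured in the same 6 samples and are not independent of each other. The groups did not overlap for 10 of the 46 genes, 9 of them lower in Runx3-/-, beside 33.6% of all genes (16.2% lower). The 2 genes outside the proteasome that the rule took lay close to 0 as well, at -0.11 for Psmc3ip and -0.03 for Psme3ip1.

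**Figure D1:**
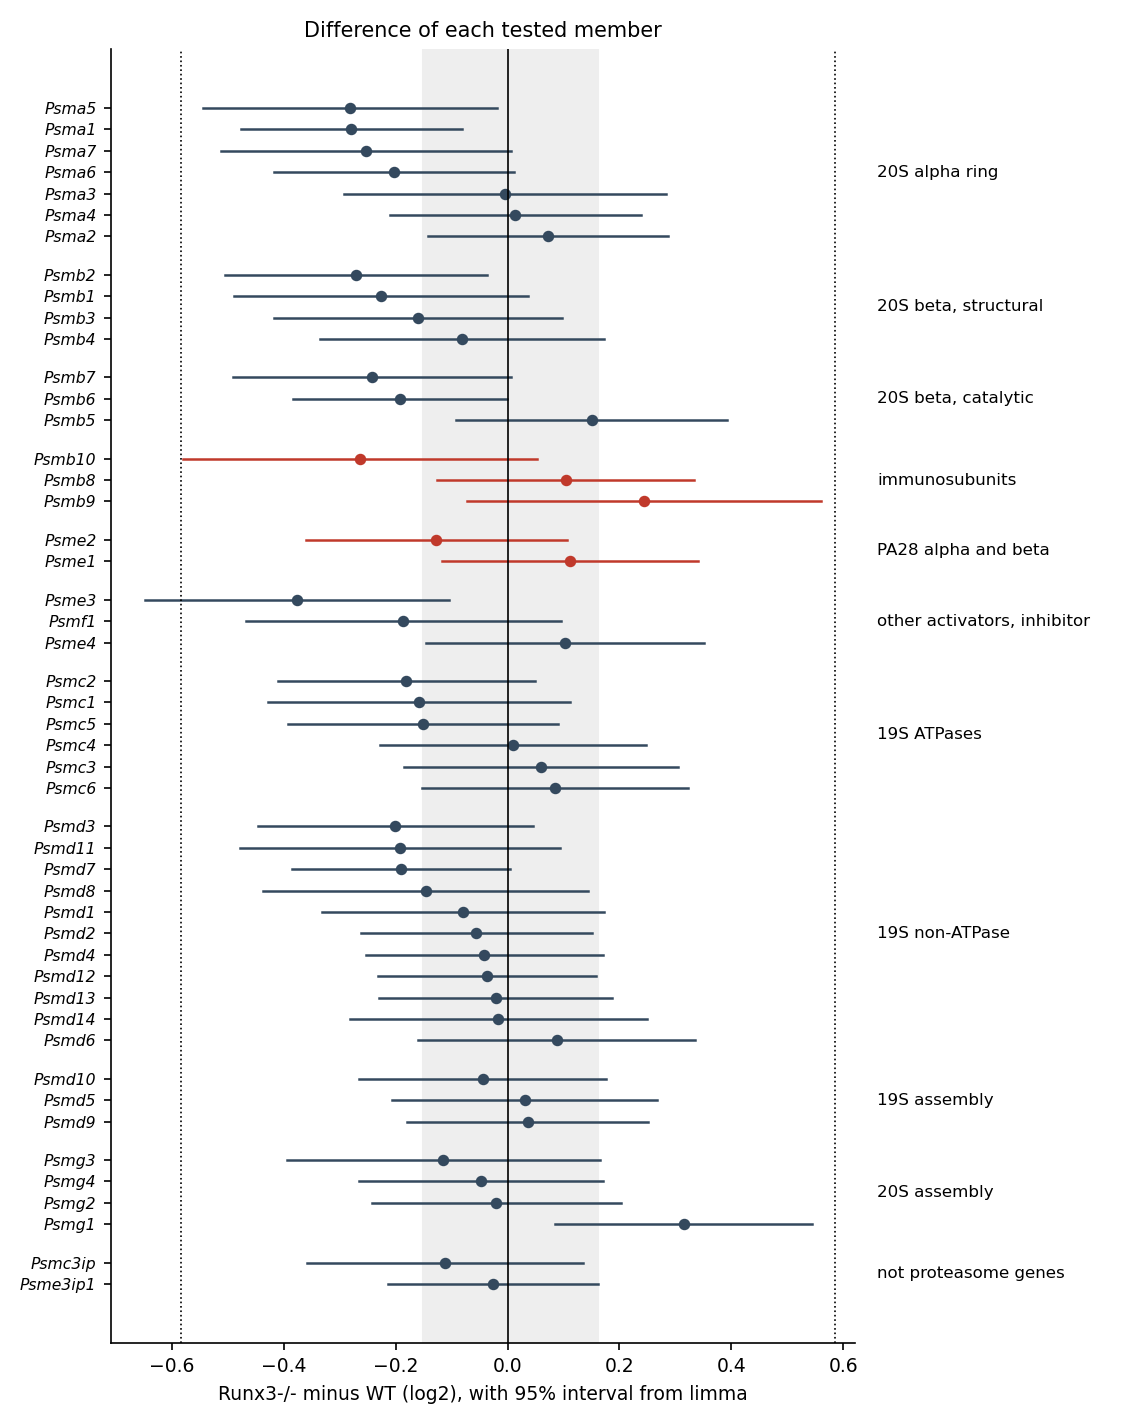
Difference of each tested member (points, Runx3-/- minus WT, log2) with its 95% interval from limma (lines), grouped by role and ordered within a role. The red symbols are the 5 immunoproteasome genes, the grey band spans the middle 50% of all 9925 genes (-0.15 to 0.16), and the dotted lines mark 1.5-fold. Every point lies inside the dotted lines, and the line of Psme3 alone crosses one of them.

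The immunosubunits were considered first, each with the constitutive subunit it replaces. Psmb8 (LMP7), which takes the place of the chymotrypsin-like subunit Psmb5, had signals of 8.95, 8.92 and 9.13 in WT and of 9.19, 9.01 and 9.12 in Runx3-/-. The groups overlapped, and the difference was 0.10 ± 0.10 (SE), its 95% interval running from -0.13 to 0.33 (limma adjusted p = 0.551). Psmb5 had signals of 6.27, 6.08 and 6.26 in WT and of 6.20, 6.41 and 6.45 in Runx3-/-. Its groups overlapped as well, with Runx3-/- replicate 1 among the WT values, at a difference of 0.15 ± 0.11 (adjusted p = 0.398). The change of Psmb8 over that of Psmb5 was -0.05 on the log2 scale, less than the spread between arrays of a group (pooled SD 0.16).

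Psmb9 (LMP2), which replaces the caspase-like subunit Psmb6, had signals of 8.53, 8.57 and 9.03 in WT and of 8.998, 8.95 and 8.91 in Runx3-/-. WT replicate 3 stood apart from the other WT arrays and above every Runx3-/- array, so that the WT mean of 8.71 ± 0.28 (SD, n = 3) was spread widely against 8.95 ± 0.04 in Runx3-/-. The difference was 0.24 ± 0.14 (SE), with an interval from -0.07 to 0.56 (adjusted p = 0.295). Without WT replicate 3 it was 0.40 and passed the test (adjusted p = 0.0439). Without WT replicate 1 it was 0.16 (adjusted p = 0.598), and without WT replicate 2 it was 0.17 (adjusted p = 0.54).

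Psmb6 had signals of 7.79, 7.80 and 7.74 in WT and of 7.55, 7.59 and 7.62 in Runx3-/-. All 3 Runx3-/- arrays lay below all WT arrays, with SDs of 0.03 and 0.04, at a difference of -0.19 ± 0.08 (SE) and an adjusted p of 0.18 in limma. Relative to the WT mean, Psmb9 minus Psmb6 was -0.19, -0.16 and 0.35 in WT against 0.52, 0.43 and 0.36 in Runx3-/-. WT replicate 3 thus lay just below the lowest Runx3-/- array, and the difference of 0.44 stood against a pooled SD of 0.22.

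Psmb10 (MECL-1) replaces the trypsin-like subunit Psmb7. It had signals of 7.61, 7.34 and 7.84 in WT and of 7.47, 7.24 and 7.28 in Runx3-/-, with overlapping groups and WT replicate 3 again the highest WT array. The difference was -0.26 ± 0.14 (SE), with an interval from -0.58 to 0.05 (adjusted p = 0.259). Psmb7 had signals of 8.10, 7.89 and 8.10 in WT and of 7.79, 7.92 and 7.65 in Runx3-/-, at -0.24 ± 0.11 (adjusted p = 0.191) and with Runx3-/- replicate 2 within the WT values. Immunosubunit and constitutive subunit differed in their change by -0.02, against a pooled SD of 0.17.

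The PA28 genes did not pass the test either. Psme1 (PA28 alpha) had signals of 9.44, 9.46 and 9.62 in WT and of 9.54, 9.74 and 9.57 in Runx3-/-, a difference of 0.11 ± 0.10 with an interval from -0.12 to 0.34 (adjusted p = 0.522). Psme2 (PA28 beta) had signals of 9.12, 8.98 and 9.23 in WT and of 8.89, 9.06 and 8.998 in Runx3-/-, a difference of -0.13 ± 0.10 with an interval from -0.36 to 0.11 (adjusted p = 0.459). Both sets of groups overlapped, and the partners of this cap lay on opposite sides of 0. A probe set that lists Psme2 beside its near-identical copy Psme2b was left out, and the 2 genes may share signal in the probe set used.

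**Figure D2:**
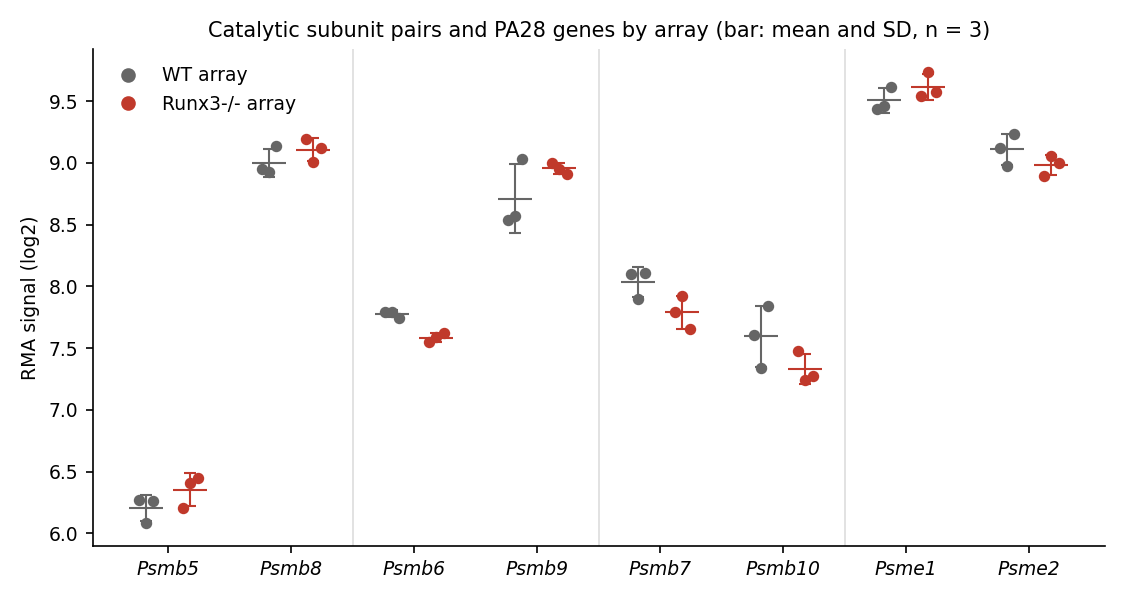
RMA signal (log2) of the constitutive and immunosubunit pairs and of the PA28 genes in each of 3 WT arrays (grey) and 3 Runx3-/- arrays (red), with the mean and SD. Signals are compared between genotypes within a gene, since probe sets differ in brightness. Psmb6 is the only gene shown whose groups do not overlap, and WT replicate 3 is the high WT point of Psmb9 at 9.03.

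WT replicate 3 was the highest WT array for each of the 5 immunoproteasome genes. It was also the WT array with the most dendritic cell marker signal, a summed linear signal over 14 markers of 10239 against 5553 and 5786 in WT replicates 1 and 2 and 3233, 5706 and 3146 in the Runx3-/- arrays. Its B cell marker sum, over 13 genes, was the highest WT value as well, at 1914 against 1240 and 1594 in WT replicates 1 and 2. The macrophage sum of WT replicate 3 was the lowest, at 2871 against 2904 and 2972. Its erythroid sum of 527 lay between the 664 and 447 of those arrays. Its T cell marker sum, over 12 genes, was 9840 against 11835 and 11526 in the other WT arrays. Among the dendritic cell markers Itgax, which encodes CD11c, had signals of 5.52, 5.001 and 6.83 in WT and of 4.78, 5.36 and 4.47 in Runx3-/-, above the array median throughout. The part of dendritic cells or of B cells in the immunoproteasome signal was not tested. Among Runx3-/- arrays replicate 2 had the most dendritic cell signal, and it was the highest of them for Psme1 and Psme2 and the lowest for Psmb8 and Psmb10.

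Taken as a list, the 5 immunoproteasome genes had 3 differences above 0 and 2 below, with a median of 0.10. At an unadjusted p under 0.05 in limma there were 0 of 5, beside 27.7% of all genes. The other 41 tested genes had 30 differences below 0 (73.2%, beside 48.9% of all genes) and a median of -0.08. Per array, as the median over genes relative to the WT mean, the immunoproteasome lay at -0.05, -0.13 and 0.13 in WT and at 0.04, 0.01 and 0.06 in Runx3-/-. The other genes lay at 0.03, -0.04 and 0.01 in WT and at -0.05, -0.11 and -0.07 in Runx3-/-. The immunoproteasome minus the rest was -0.09, -0.09 and 0.12 in WT and 0.08, 0.12 and 0.13 in Runx3-/-, so that WT replicate 3 fell within the Runx3-/- range and the groups overlapped. The medians of the 2 lists differed by 0.18. Without Runx3-/- replicate 2 this was 0.11, and without WT replicate 3 it was 0.23, the extremes when single arrays were left out.

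Psmb8 and Psmb9 lie in the MHC region on chromosome 17, in the order Psmb9, Tap1, Psmb8, Tap2, with no other gene between them in the RefSeq gene table. Tap1 and Tap2 encode the transporter that carries proteasome products into the endoplasmic reticulum. Psmb9 and Tap1 are transcribed away from each other from the same short stretch, and their windows of 300 bases (250 before and 50 after the start) shared 275 bases. The stretch between the starts, and the bases before the starts of Psmb8 and Psmb10, are shown because they are the promoter sequences of the 3 immunosubunits. They are RefSeq GRCm38.p6 sequence, and the sources used here name no build for the array annotation. Capitals mark the letters that matched a motif reported here: a CCAAT box (CCAAT) and a GC box (GGGCGG, in capitals as its reverse complement CCGCCC) between Psmb9 and Tap1, and RUNX motifs (TGTGGC, and ACCACA, the reverse complement of TGTGGT) before Psmb10. The stretch before Psmb8 has no capitals, since none of the motifs reported here matched in it. The first, at chr17:34187331-34187555, is printed on the plus strand, from the start of Psmb9 on its left to the start of Tap1 on its right; the next is chr17:34197945-34198194, plus strand; and the last is chr8:105938393-105938642, minus strand.
Psmb9 and Tap1: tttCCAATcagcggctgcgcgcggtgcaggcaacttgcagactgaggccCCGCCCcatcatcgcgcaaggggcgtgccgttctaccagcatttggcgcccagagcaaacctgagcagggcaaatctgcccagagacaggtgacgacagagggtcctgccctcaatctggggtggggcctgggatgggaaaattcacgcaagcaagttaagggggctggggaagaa
Psmb8: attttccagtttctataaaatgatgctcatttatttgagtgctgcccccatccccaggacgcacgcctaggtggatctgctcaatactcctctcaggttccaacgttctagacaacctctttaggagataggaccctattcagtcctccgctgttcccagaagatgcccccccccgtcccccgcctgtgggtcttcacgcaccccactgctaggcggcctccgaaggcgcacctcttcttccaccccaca
Psmb10: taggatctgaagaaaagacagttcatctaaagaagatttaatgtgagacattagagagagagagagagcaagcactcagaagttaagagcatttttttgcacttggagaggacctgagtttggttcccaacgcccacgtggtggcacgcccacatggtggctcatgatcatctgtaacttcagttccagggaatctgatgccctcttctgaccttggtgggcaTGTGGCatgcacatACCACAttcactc

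Tap1 rose where Psmb9, which starts from the same stretch, did not pass the test. Tap1 had signals of 8.32, 8.36 and 8.58 in WT and of 9.22, 9.22 and 9.14 in Runx3-/-. Every Runx3-/- array was above every WT array, at a difference of 0.78 ± 0.10 (SE), with an interval from 0.55 to 1.01 (limma adjusted p = 0.00229). Tap2 had signals of 7.66, 7.68 and 7.73 in WT and of 8.05, 8.08 and 8.17 in Runx3-/-, and rose by 0.41 ± 0.09 (adjusted p = 0.0207). It missed the threshold when WT replicate 1, WT replicate 2, Runx3-/- replicate 2 or Runx3-/- replicate 3 was left out, at adjusted p-values up to 0.0778.

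Relative to the WT mean, Tap1 minus Psmb9 was 0.08, 0.08 and -0.16 in WT and 0.51, 0.56 and 0.52 in Runx3-/-. The groups did not overlap and the means differed by 0.53. Tap2 minus Psmb8 was 0.02, 0.07 and -0.09 in WT and 0.17, 0.38 and 0.36 in Runx3-/-, a difference of 0.31, again without overlap. These pairs were set side by side after their values had been seen, and their differences were not tested. For Tap1 the difference from Psmb9 was 0.45 without WT replicate 3.

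**Figure D3:**
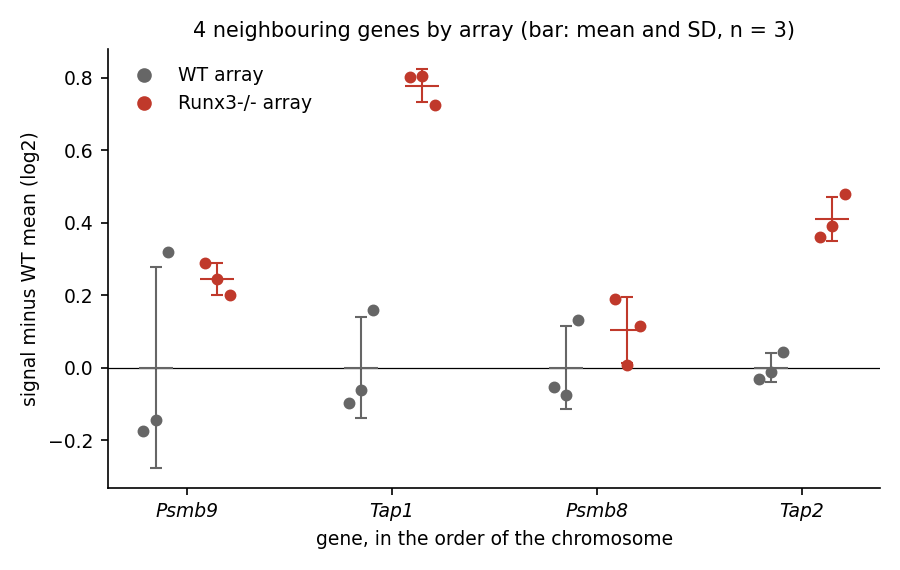
Signal of the 4 neighbouring genes Psmb9, Tap1, Psmb8 and Tap2 in each array, as the log2 difference from the gene's WT mean, with the mean and SD over 3 WT arrays (grey) and 3 Runx3-/- arrays (red). The Runx3-/- points of Tap1 and Tap2 lie above all their WT points, whereas those of Psmb9 and Psmb8 overlap with WT, and WT replicate 3 is the highest WT point of each gene.

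The motifs were searched on both strands in the windows of the 39 tested proteasome genes that have one and of all 27025 genes that have one. A gene counted when any of its windows held the motif. A RUNX motif (TGTGGT or TGCGGT, with the variants TGTGGC and TGCGGC) was in 17 of the 39 (43.6%), beside 48.7% of all genes with a window. Of the immunoproteasome genes Psmb8 and Psmb10 had one, that of Psmb8 lying in the 50 bases after its start. The core of an interferon-stimulated response element (GAAA, any 2 bases, then GAAA) was in 5 of 39 (12.8%, against 3.99% of all), which were Psmb3, Psmd4, Psmd9, Psme1 and Psmg4. The GC box was in 23 of 39 (59%, against 38.2%), a CCAAT box in 13 (33.3%, against 41.1%), and the core of the antioxidant response element (TGACNNNGC), which Nfe2l1 binds when it raises proteasome genes, in 6 (15.4%, against 14%). The matches printed in capitals above do not overlap each other. A match is only a run of letters in this window.

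Among the other 20S genes the differences leaned to the lower side. The 14 tested core genes other than the immunosubunits had a median of -0.20, with 11 below 0, beside 48.9% of all genes. Their median per array relative to the WT mean was 0.04, -0.06 and 0.06 in WT and -0.19, -0.21 and -0.14 in Runx3-/-. Every Runx3-/- array thus lay below every WT array for this median, although 0 of the 14 genes passed the adjusted test. At an unadjusted p under 0.05 there were 4, Psma1, Psma5, Psmb2 and Psmb6, beside 13.7% of all genes on the lower side. Of the 14, 5 had groups that did not overlap, all lower in Runx3-/-, beside 33.6% of all genes without overlap and 16.2% without overlap on the lower side.

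In the alpha ring, which closes the barrel, the median of 7 genes was -0.20. Psma1 had signals of 8.23, 8.16 and 8.11 in WT and of 7.89, 7.85 and 7.92 in Runx3-/-. The groups did not overlap, and the difference of -0.28 ± 0.09 (SE), with an interval from -0.48 to -0.08, had the lowest p of the proteasome genes (unadjusted p = 0.0112 in limma). Its adjusted p of 0.0744 fell under the threshold when no filter was set (0.0468, over 19938 genes) and with trended, robust moderation (0.0496). Psma5, with the lowest difference of the ring, had signals of 6.83, 7.00 and 7.10 in WT and of 6.81, 6.53 and 6.75 in Runx3-/-. Its groups did not overlap, by a narrow margin, at -0.28 ± 0.11 (adjusted p = 0.153), and its second probe set gave -0.28 too. Psma2 had the highest difference, 0.07 (adjusted p = 0.667), and Psma3 was at 0.00 in its brightest probe set and at 0.10 and 0.12 in the other 2.

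The structural beta subunits, which have no active site after assembly, were all below 0, with a median of -0.19 over 4 genes. Psmb2 had signals of 7.92, 7.82 and 7.85 in WT and of 7.64, 7.71 and 7.43 in Runx3-/-, without overlap, at -0.27 ± 0.10 (adjusted p = 0.126). Psmb4 was the closest to 0, at -0.08 (adjusted p = 0.679), and turned to 0.01 without Runx3-/- replicate 2. Psma8, the alpha subunit of the testis proteasome, and Psmb11, the catalytic subunit of the thymoproteasome of cortical epithelium, were below the filter and not tested. Psma8 had signals of 3.03, 2.95 and 2.99 in WT and of 3.05, 2.71 and 3.18 in Runx3-/-, and Psmb11 had signals of 2.70, 2.96 and 2.96 in WT and of 2.89, 2.81 and 2.99 in Runx3-/-. All of these values were below the array medians.

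The lowest difference among the members was that of Psme3 (PA28 gamma), a nuclear activator that forms its own cap without Psme1 and Psme2. Psme3 had signals of 8.11, 8.19 and 7.98 in WT and of 7.86, 7.79 and 7.501 in Runx3-/-. Without overlap between the groups, the signal was 1.30-fold lower, a difference of -0.38 ± 0.12 (SE, adjusted p = 0.0793 in limma) that did not pass the threshold. Psme4 (PA200), another nuclear activator, differed by 0.10 (adjusted p = 0.59), and Psmf1 (PI31), which inhibits the core in vitro, by -0.19 (adjusted p = 0.369).

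The 17 genes of the 19S particle were closer to 0. Their median was -0.06, with 13 below 0, beside 48.9% of all genes. At an unadjusted p under 0.05 in limma there were 0 of 17, beside 27.7% of all genes. Every 95% interval lay within 1.5-fold, beside 73.9% of all genes. Groups without overlap were found for 3, Psmc2, Psmd3 and Psmd7, all lower in Runx3-/-, a share near the 16.2% of all genes on that side. Psmd2, whose value is this median, was at -0.06 in its brightest probe set. Its other probe set, nearly as bright, was at -0.16 with groups that did not overlap. Among the 6 ATPases, which unfold substrates, the differences ran from -0.18 for Psmc2 (adjusted p = 0.285) to 0.09 for Psmc6 (adjusted p = 0.645). Among the 11 other subunits, which include the ubiquitin receptor Psmd4 and the deubiquitinase Psmd14, they ran from -0.20 for Psmd3 (adjusted p = 0.268) to 0.09 for Psmd6 (adjusted p = 0.65), and 10 of 11 were below 0. Psmd4 was at -0.04 and Psmd14 at -0.02.

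The assembly chaperones held the only member with an unadjusted p under 0.05 on the higher side. Psmg1 (PAC1), which pairs with Psmg2 to build the alpha ring, had signals of 5.92, 5.87 and 5.95 in WT and of 6.39, 6.15 and 6.14 in Runx3-/-. The groups did not overlap, and the difference was 0.31 ± 0.10 (SE), with an interval from 0.08 to 0.54 (limma adjusted p = 0.0825). Its partner Psmg2 differed by -0.02, and Psmg4 by -0.05. Psmg3 (PAC3), at -0.11 (adjusted p = 0.591), had signals of 3.59, 3.20 and 3.47 in WT and of 3.41, 3.31 and 3.20 in Runx3-/-, and passed the filter through WT replicate 1 alone. The 19S chaperones Psmd5, Psmd9 and Psmd10, which assemble the ATPase ring, lay between -0.04 and 0.04.

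The arrays of a group were not ordered alike over the 41 genes outside the immunoproteasome. WT replicate 1 was the highest WT array for 20 of them, WT replicate 3 for 16 and WT replicate 2 for 5, and WT replicate 2 was the lowest for 20. Runx3-/- replicates 1 and 3 were the highest for 17 genes each and replicate 2 for 7. Within groups the proteasome genes varied somewhat less than genes in general, with a median SD of 0.12 against 0.14, but they were also brighter (median level 7.44 against 5.82).

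Genes that work with the proteasome but lie outside the rule were listed apart. They included the core assembly factor Pomp, the ubiquitin-dependent segregase Vcp and its cofactor Ufd1, and the transcription factor Nfe2l1 with Ngly1, the enzyme that processes it. Of 19 tested, 0 passed the adjusted test in limma, with 3 lower and 2 higher at an unadjusted p under 0.05, beside 13.7% and 14% of all genes, and the median was -0.11. The 4 with the lowest p were Ufd1 at 0.37 (adjusted p = 0.066), Zfand5, which stimulates proteasome activity, at -0.29 (0.0883), Ngly1 at 0.36 (0.105) and Vcp at -0.25 (0.111). Pomp, which is needed to form cores with immunosubunits, differed by -0.28 (adjusted p = 0.248). Sem1, a small subunit of the 19S lid, was at -0.38 (adjusted p = 0.208), and without Runx3-/- replicate 1 it was at -0.60 and passed the test (adjusted p = 0.0267). It is named here because of that call.

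Downstream of the proteasome, in the MHC class I peptide pathway, 4 of 15 tested genes rose and 1 fell, beside 5.63% and 6.01% of all genes. Besides Tap1 and Tap2, the class I heavy chain gene H2-Q4 rose by 1.02 (limma adjusted p = 0.000715), although near-identical class I genes may share its signal. Nlrc5, a transactivator of class I genes that also acts on Psmb9 and Tap1, rose by 1.002 (adjusted p = 0.00273). Lap3, a cytosolic peptidase, fell by 0.996 (adjusted p = 0.00129), and B2m, the class I light chain, differed by 0.14 (adjusted p = 0.388). H2-K1, H2-D1 and H2-T23 were not analysed here.

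The interferon response includes known activators of the immunosubunits. Of 20 genes tested, 9 rose and 0 fell, with a median of 0.36, beside 5.63% of all genes higher and 6.01% lower. Without WT replicate 1, WT replicate 2 or Runx3-/- replicate 1 the count that rose was 5, without Runx3-/- replicate 2 it was 6, and without either of the other arrays it was 8. Of the 11 genes that did not pass, 5 had differences below 0, among them Irf8 at -0.85 (limma adjusted p = 0.0977), Ifngr1 at -0.30 (0.124) and Irf2 at -0.15 (0.372). Irf8 passed without Runx3-/- replicate 2, at -1.14 (adjusted p = 0.0425). Usp18 rose by 2.62, Ifit2 by 1.10, Irf7 by 1.01 and Stat2 by 0.62. Irf1, an activator of Psmb9 and Tap1 in cells treated with interferon, had signals of 8.48, 8.51 and 8.78 in WT and of 9.003, 8.995 and 9.04 in Runx3-/- without overlap, and rose by 0.42 (limma adjusted p = 0.0382). It missed the threshold when any array other than WT replicate 3 was left out, at adjusted p-values from 0.0808 to 0.129. Isg15 and Gbp2 were not analysed here. Beside these values the 5 immunoproteasome genes, with differences from -0.26 to 0.24, stayed within the range of the other proteasome genes.

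**Figure D4:**
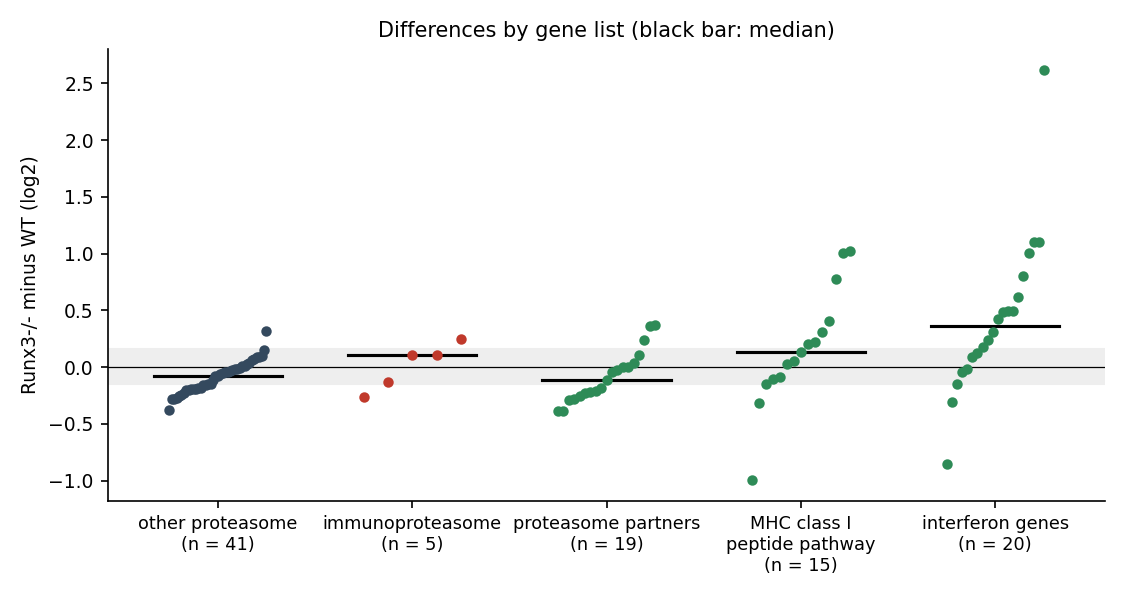
Differences (Runx3-/- minus WT, log2) of every tested gene in 5 lists, each point a gene and the black bar the median; the grey band spans the middle 50% of all 9925 genes. The proteasome genes and their partners lie between -0.39 and 0.37, whereas genes of the MHC class I pathway run from -0.996 to 1.02 and those of the interferon response from -0.85 to 2.62.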

How the data were processed

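Affymetrix mouse Gene 1.0 ST arrays measured expression, with 1 array for each of 3 WT and 3 Runx3-/- biological repeats, grouped by sample title. The deposited values are log2 signals that the authors made in Partek with RMA and a GC correction. RMA normalization forces a like distribution on all arrays, so that a shift shared by most genes cannot be seen. The sources used here give no versions and no genome build, and depth has no counterpart on arrays, where the number of arrays limits the precision.

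GEO's platform annotation paired 21789 probe sets with 1 symbol and 1621 with several, which were not named. Probe sets below the median of their array in all 6 arrays were left out, and the brightest probe set stood for a gene. All 50 members matched a RefSeq gene by Entrez identifier. Differences were tested two-sided over 9925 genes with limma 3.58.1 (lmFit and eBayes, R 4.3.3) without covariates, and p-values were adjusted by the Benjamini-Hochberg method. A list is described by counts and its median, without a test. The fit was tested on simulated data.

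Named were the immunoproteasome genes and their constitutive counterparts, the extremes of each role, members that were not tested or are not subunits, and up to 4 genes with the lowest p in each related list. Genes named beyond this rule, such as Psma1, Tap2, Pomp, B2m and Irf1, were chosen after their values were seen. The members and lists were chosen with earlier results of these data known. The alternatives were other normalizations, filters, probe set rules, moderation, array weights, a replicate block, the methods' criteria (1.5-fold and an unadjusted p under 0.05) and leaving out each array, 16 in all. Same-numbered arrays of the genotypes deviated with correlations of 0.18, 0.03 and -7.9e-05, so that the numbers were not taken as pairs.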

Additional observations from a re-analysis of the deposited data

How the results depend on the processing

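Under the 16 alternatives the medians of the immunoproteasome genes (0.05 to 0.17) and of the other proteasome genes (-0.12 to -0.06) kept their signs. Leaving out single arrays moved the latter median between -0.124 and -0.058. The count of proteasome genes called higher ranged from 0 to 1 when arrays were left out, the 1 being Psmb9 without WT replicate 3. The count called lower was 1 without a filter and 1 with trended, robust moderation, in both cases Psma1. Over all genes, 1155 were called, 182 without moderation and between 620 and 922 with an array left out. With the replicate number as a block, 1085 genes were called over all, and 0 proteasome genes were called higher and 0 lower. With an array left out, the difference of Psmd9 ran from -0.019 to 0.088, of Psmd10 from -0.095 to 0.0083, of Psmd6 from -0.0043 to 0.158 and of Psmb4 from -0.136 to 0.015, and quantile normalization gave -0.012 for Psmd9. These signs turned, for genes that had not passed the test. So did those of a pair of untested subunit differences near 0: Psmb8 minus Psmb5, at -0.047, was 0.030 without Runx3-/- replicate 2, and Psmb10 minus Psmb7, at -0.021, was 0.090 without that array, 0.065 without WT replicate 3 and 0.012 with array weights. Nlrc5, Lap3, Irf7, Stat2 and Irf1 missed the threshold without moderation, Irf1 at an adjusted p of 0.125 (ordinary t-test), and 2 interferon genes were then called higher. Ufd1 passed with trended, robust moderation (adjusted p = 0.0472). Causes were not tested. With 3 arrays a group, a gene that did not pass is not shown to be unchanged. Over all genes 1155 were called and 825 changed by 1.5-fold or more, so that smaller changes passed for some genes. Transcript levels do not show which subunits were built into proteasomes.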
